A study of Mus musculus with 10 samples.

Results

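Aminoacyl-tRNA synthetases are the enzymes that load each transfer RNA with its amino acid. Their genes were followed here in mouse pancreatic islets, after treadmill training or without it. Members were the genes whose current or older symbol is 1 to 3 letters followed by ars, ars1 or ars2, together with the subunit genes Farsa and Farsb. Antisense genes and pseudogenes were left out. The 35 genes described here, of 52178 in the deposited table, comprise 19 for enzymes of the cytosol and 16 for enzymes of mitochondria. All 35 passed the filter on low counts that left 15298 genes for testing.

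The islets came from male C57Bl/6 mice that had been retired from breeding. The sedentary group had 5 libraries (1 to 5) and the exercise group 5 (6 to 10). Mice of the exercise group were first acclimatized for 3 days. They then had treadmill sessions of 1 h, 5 per week over 2 weeks, with the belt at 17 cm/s and an incline of 5 degrees. In both groups islets were freed with collagenase, picked by hand and held in medium with 11 mM glucose before RNA extraction. The labels give no age and do not tie each library to an animal of its own, so the spread behind each p-value is that among libraries and may be technical in part.

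Library totals lay between 15081922 and 23222704 counts. Levels are given in CPM, estimated counts relative to a library size that was adjusted with edgeR's TMM factors. Sedentary 1 and 2 stood apart from sedentary 3 to 5. Their small intestinal epithelium markers had mean log2 CPM of 8.32 and 8.87, against 5.98 to 6.61 in sedentary 3 to 5 and 1.98 to 4.08 in exercise. Their beta cell markers, which define the main cell of the islet, were at 5.64 and 7.39, against 8.98 to 9.29 and 9.04 to 9.45. Acinar markers, those of the enzyme-secreting pancreas around the islets, were at 9.74 to 10.74 in sedentary and 10.75 to 12.11 in exercise libraries. No gene of these marker lists was at 0 in all libraries. Values for the 8 libraries without sedentary 1 and 2 are therefore given beside those for all 10. In such bulk samples, fewer cells of a type and less RNA per cell cannot be told apart.

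In the cytosol a number of synthetases, among them those for glutamate with proline, isoleucine, lysine, leucine, methionine, glutamine and arginine, assemble with scaffold proteins into the multi-synthetase complex, and others work free of it. Mitochondria use a separate set, encoded in the nucleus and imported. When amino acids run short or proteins misfold, kinases that phosphorylate the initiation factor eIF2 raise translation of the transcription factor ATF4. ATF4 then activates genes of amino acid synthesis, amino acid uptake and many cytosolic synthetases, usually together with a C/EBP partner. From published work of that kind, 13 of the 19 cytosolic genes were set down as reported ATF4 targets: Aars1, Cars1, Eprs1, Gars1, Iars1, Lars1, Mars1, Nars1, Sars1, Tars1, Vars1, Wars1 and Yars1. The other 6 were Farsa, Farsb, Hars1, Kars1, Qars1 and Rars1.

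The composite C/EBP-ATF element, TGATGNAA on either strand, was looked for in RefSeq promoters of mouse build GRCm38.p6, each reaching from 250 bases before a gene's start into its first transcribed bases. The table held promoters of 26 of the 35 genes. The element occurred in 5 of the 8 reported ATF4 targets with a promoter there (Aars1, Gars1, Iars1, Tars1 and Yars1), in 0 of the 4 other cytosolic genes and in 0 of the 14 mitochondrial genes. It occurred in 3.97% of all 32851 promoters in the table. Of genes with a promoter there that edgeR called higher in exercise, 3 of 5 over the 10 libraries and 5 of 8 over the 8 held the element. Eprs1, Mars1 and Sars1 were called without it, and Cars1, Lars1 and Nars1 were called but had no promoter in the table. Gars1 and Tars1 were not called by edgeR over the 10 libraries. The 5 genes with the element were all called over the 8. For each, the window with the element within 50 bases of the start is printed on the gene's strand, with the element in capitals.
Aars1, chr8:111033840-111033869, plus strand: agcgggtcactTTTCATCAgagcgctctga
Gars1, chr6:55037960-55037989, plus strand: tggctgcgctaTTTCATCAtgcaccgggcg
Iars1, chr13:49682126-49682155, plus strand: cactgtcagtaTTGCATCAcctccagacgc
Tars1, chr15:11399655-11399684, minus strand: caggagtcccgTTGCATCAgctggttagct
Yars1, chr4:129189895-129189924, plus strand: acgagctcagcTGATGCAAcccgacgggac

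In 4 of these genes the element lies on the strand opposite to the gene, and reads from its other end, and in Yars1 it lies on the gene's own strand. The letters TTGCATCA stand in the windows of Iars1 and Tars1, their reverse complement TGATGCAA in that of Yars1, and TTTCATCA in those of Aars1 and Gars1.

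The core sequence bound by NRF1, an activator of many nuclear genes for mitochondria, was in 0 of the members' promoters and in 0.971% of all promoters. A match describes letters in this window and was not tested as a site.

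A set of cytosolic synthetase genes was higher in exercise than in sedentary islets, those for cysteine, methionine, tyrosine, isoleucine, alanine, leucine and glutamate with proline. Over the 10 libraries, 7 of 19 cytosolic genes rose (Aars1, Cars1, Eprs1, Iars1, Lars1, Mars1 and Yars1) and 0 fell, by edgeR's quasi-likelihood test with Benjamini-Hochberg adjusted p under 0.05 over all genes. Over all genes tested, 2.44% were called higher and 11.4% lower. All 7 belong to the 13 reported ATF4 targets, whose median log2 fold change was 0.50. The 6 other cytosolic genes had a median of -0.37, and all genes tested one of 0. None of the 6 others passed (edgeR, 3 at an unadjusted p under 0.05). DESeq2 called Qars1 and Rars1 lower, where it called 2835 of all 27941 genes lower.

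**Figure D1:**
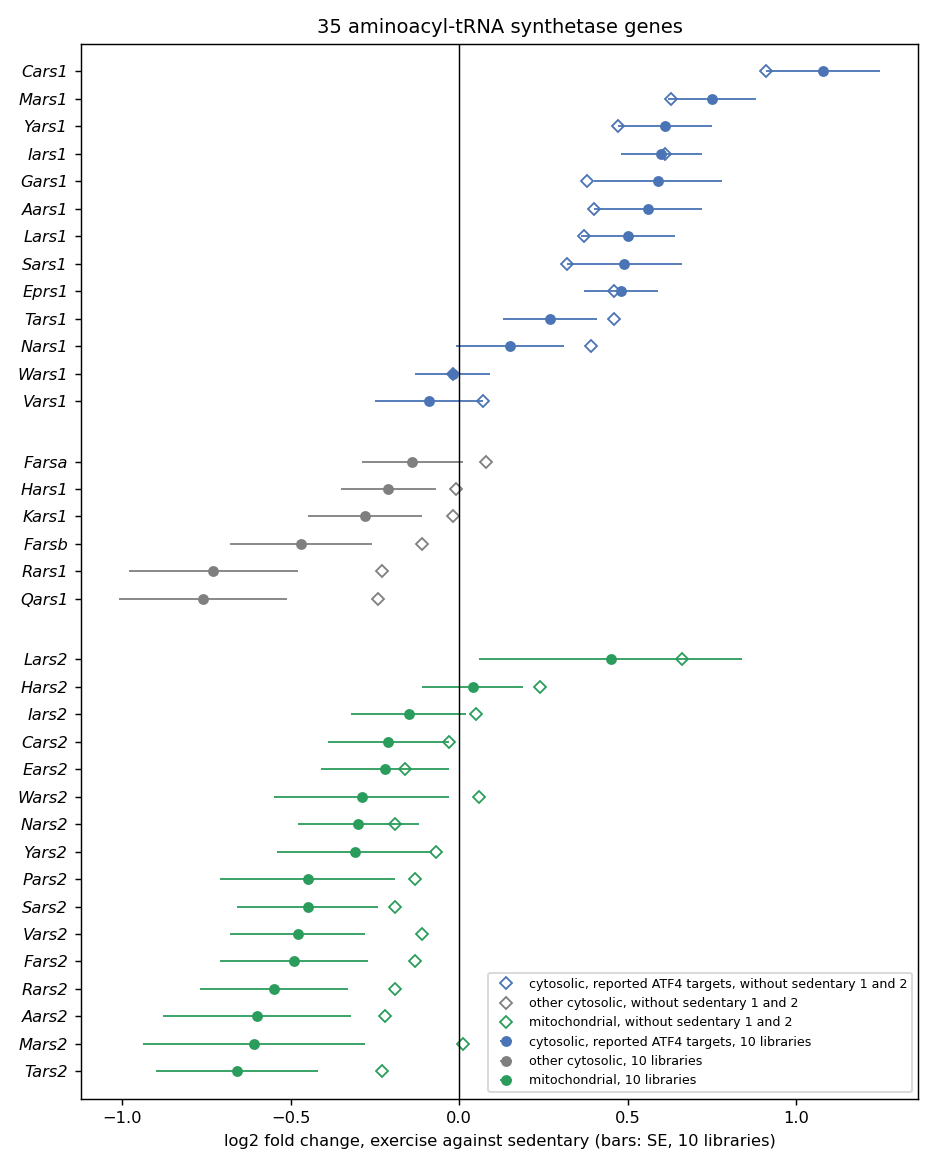
Log2 fold change of exercise against sedentary for each of 35 synthetase genes, filled circles with bars of 1 standard error for the 10 libraries and open diamonds for the 8 without sedentary 1 and 2. The reported ATF4 targets reach from -0.09 to 1.08 and the other cytosolic genes from -0.76 to -0.14 over 10 libraries, and without sedentary 1 and 2 the latter lie between -0.24 and 0.08.

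Without sedentary 1 and 2, 11 of the 19 cytosolic genes rose and 0 fell by the same edgeR test, where 4.10% of all genes were called higher and 8.68% lower. The 11 comprise the same 7 genes with Gars1, Nars1, Sars1 and Tars1, and all are reported ATF4 targets. Of that group of 13, Vars1 and Wars1 did not pass, and the median of the 13 was 0.40, beside -0.07 for the other 6 cytosolic genes and 0.03 for all genes. The counts depend on the scaling. With library totals alone the median of all genes fell to -0.34, and 159 of all 15298 genes were called higher and 4408 lower. There 1 cytosolic gene was called higher (Cars1, log2 fold change 0.74, edgeR adjusted p = 0.0324) and 6 lower. Without exercise 7, 3 of the cytosolic genes rose over the remaining 9 libraries, namely Cars1, Iars1 and Mars1. Of all 15578 genes tested there, 132 rose.

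Cars1 (ENSMUSG00000010755), which charges the cysteine tRNA, had the largest change of the 35 genes. Its level was 19.5, 29.9, 36.6, 37.3 and 34.8 CPM in sedentary 1 to 5 and at 61.6, 74, 63.4, 64.9 and 71.0 CPM in exercise 6 to 10. The groups did not overlap, and the lowest exercise library was far above the highest sedentary one. The log2 fold change was 1.08 ± 0.17 (SE, edgeR adjusted p = 0.009), a 2.12-fold difference, and 0.91 ± 0.09 (adjusted p = 0.00102) without sedentary 1 and 2. Its call remained with any 1 library left out.

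Mars1 (ENSMUSG00000040354), the methionine enzyme of the complex, which also serves the initiator tRNA, was at 40.7, 42.8, 50.1, 59.5 and 55.9 CPM in sedentary and 77.9, 82.0, 77.5, 92.4 and 89.0 CPM in exercise libraries. No sedentary library reached the lowest exercise library. On the log2 scale this was 0.75 ± 0.13 (SE, edgeR adjusted p = 0.009) and 0.63 ± 0.10 (adjusted p = 0.00315) without sedentary 1 and 2. Mars1 overlaps Ddit3 on the opposite strand, and the sources used here do not say whether counting used the strand. Ddit3, which encodes the stress factor CHOP, was at 11.4 ± 2.71 CPM in sedentary and 9.63 ± 1.21 CPM in exercise libraries (SD, n = 5 each).

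Iars1 (ENSMUSG00000037851), the isoleucine enzyme of the complex, was at 52.8, 62.0, 62.8, 61.2 and 53.4 CPM in sedentary and 78.2, 107, 86.5, 83.6 and 87.9 CPM in exercise libraries. Exercise 7 was the highest, and the groups did not overlap. Sedentary 1 and 2 lay within the range of the other sedentary libraries or just below it. The log2 fold change was 0.60 ± 0.12 (SE, edgeR adjusted p = 0.0117) and 0.61 ± 0.12 (adjusted p = 0.00949) without these libraries. In the mouse annotation, 17.2% of the 31-base words of Iars1 transcripts also occur in another gene, so that part of its reads could be divided.

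Yars1 (ENSMUSG00000028811), the tyrosine enzyme, was at 28.4, 34.2, 40.6, 40.9 and 45.2 CPM in sedentary and 60.1, 61.8, 54.8, 52.6 and 58.8 CPM in exercise libraries. Again every exercise library was above every sedentary one. As a log2 fold change the difference was 0.61 ± 0.14 (SE, edgeR adjusted p = 0.0189) and 0.47 ± 0.09 (adjusted p = 0.00724) without sedentary 1 and 2. Without exercise 7 the adjusted p was 0.0563.

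Eprs1 (ENSMUSG00000026615) encodes the only synthetase that carries 2 activities in 1 chain, for glutamate and for proline. The gene stood at 75.7, 86.4, 92.2, 93.8 and 81.4 CPM in sedentary and 112, 125, 115, 123 and 126 CPM in exercise libraries. The groups did not overlap, and the sedentary libraries 1 and 2 were close to the other 3. The log2 fold change was 0.48 ± 0.11 (SE, edgeR adjusted p = 0.0179) and 0.46 ± 0.09 (adjusted p = 0.0103) without them. Without exercise 7 the adjusted p was 0.0571.

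Aars1 (ENSMUSG00000031960), the alanine enzyme, was at 63.8, 90, 110, 115 and 106 CPM in sedentary and 144, 150, 144, 128 and 150 CPM in exercise libraries. Sedentary 1 was the lowest, exercise 9 the lowest of its group, and the groups did not overlap. On the log2 scale the fold change was 0.56 ± 0.16 (SE, edgeR adjusted p = 0.0455) and 0.40 ± 0.09 (adjusted p = 0.0164) without sedentary 1 and 2. This call was lost without sedentary 2, sedentary 5 or any 1 exercise library (highest edgeR adjusted p = 0.107). Aars1 shares 20.3% of its 31-base words with another gene, and it overlaps Exosc6 on the same strand.

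Lars1 (ENSMUSG00000024493), the leucine enzyme, is also known as a leucine sensor for mTORC1. Lars1 stood at 29.5, 37.7, 44.4, 46.6 and 43.9 CPM in sedentary and 56.2, 60.5, 53.3, 62.7 and 52.9 CPM in exercise libraries, with no overlap. The log2 fold change was 0.50 ± 0.14 (SE, edgeR adjusted p = 0.0398) and 0.37 ± 0.09 (adjusted p = 0.0217) without sedentary 1 and 2. The call was lost without sedentary 1, sedentary 2 or any 1 exercise library (highest edgeR adjusted p = 0.100).

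**Figure D2:**
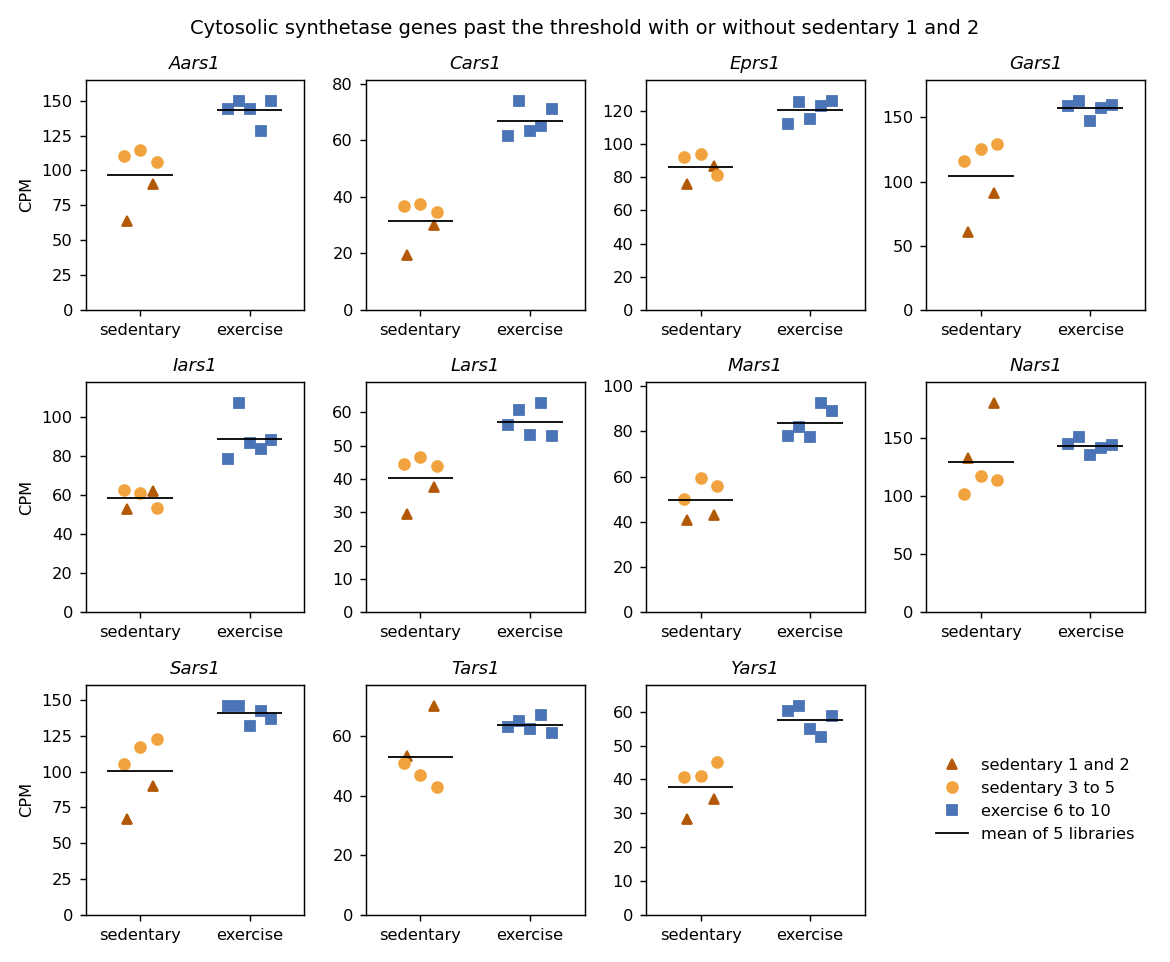
CPM in each library for the 11 cytosolic synthetase genes past the threshold with or without sedentary 1 and 2, with the mean of 5 libraries as a line. Exercise lies above sedentary without overlap in 9 panels, while for Nars1 and Tars1 sedentary 2 (180 and 70.3 CPM) is above every exercise library.

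A further 4 genes did not pass over the 10 libraries by edgeR but passed over the 8, and they form pairs that differed in what sedentary 1 and 2 did. Gars1, the glycine enzyme that serves cytosol and mitochondria from 1 gene, was at 61.1, 91.1, 116, 125 and 129 CPM in sedentary and 159, 163, 147, 157 and 160 CPM in exercise libraries. Sars1, the serine enzyme, was at 67.1, 89.6, 105, 117 and 123 CPM and at 146, 146, 132, 142 and 137 CPM. Both had sedentary 1 and 2 as their lowest libraries and no overlap between groups. For Gars1 the log2 fold change was 0.59 (edgeR adjusted p = 0.0658) over 10 libraries and 0.38 (adjusted p = 0.0166) over 8. That of Sars1 was 0.49 (edgeR adjusted p = 0.0736) and 0.32 (adjusted p = 0.0448). Both also passed without sedentary 4 alone (edgeR adjusted p = 0.0452 and 0.0494) and by DESeq2 over 10 libraries (adjusted p = 0.0231 and 0.0267).

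Nars1, the asparagine enzyme, and Tars1, the threonine enzyme, were instead highest in sedentary 2. Nars1 was at 133, 180, 102, 117 and 114 CPM in sedentary and 145, 151, 135, 141 and 144 CPM in exercise libraries. Tars1 was at 53.5, 70.3, 50.9, 47.1 and 43.0 CPM and at 63.1, 65.1, 62.3, 67.2 and 61.0 CPM. Over 10 libraries the groups overlapped in both genes, and sedentary 3 to 5 were below every exercise library. For Nars1 the log2 fold change was 0.15 (edgeR adjusted p = 0.507) over 10 libraries and 0.39 (adjusted p = 0.016) over 8. That of Tars1 was 0.27 (edgeR adjusted p = 0.197) and 0.46 (adjusted p = 0.00685), and Tars1 also passed without sedentary 2 alone (adjusted p = 0.0367). With library totals alone the 10-library values were -0.18 and -0.07.

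The 2 reported targets that passed in neither fit were Vars1 and Wars1. Vars1, the valine enzyme, was at 59.0 ± 9.48 CPM in sedentary and 55.6 ± 10.1 CPM in exercise libraries (SD, n = 5 each), a log2 fold change of -0.09 that was 0.03 with upper quartile scaling. Wars1, the tryptophan enzyme, is induced by interferon gamma in many cells. It lay between 53.5 and 69.1 CPM in sedentary and between 56.2 and 64.5 CPM in exercise libraries, so that one range held the other. Its log2 fold change was -0.02 (0.09 with upper quartile scaling, edgeR adjusted p = 0.91). Of 23 interferon-induced genes tested, 13 fell and 0 rose, where 11.4% of all genes tested fell, and their median log2 fold change was -1.94. Over the 8 libraries 11 of them fell, where 8.68% of all genes did, and their median was -1.13. With any 1 library left out 5 to 16 fell, with 5 to 7 when it was an exercise library, and limma-voom called 1. The antigen-processing subunit Psmb9 was among them, at 34.4 ± 24.8 CPM in sedentary and 5.37 ± 1.32 CPM in exercise libraries (edgeR adjusted p = 0.00976, log2 fold change -2.67, and -1.60 over the 8 libraries). Intestinal markers differed between the same libraries, and their part in this was not tested.

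None of the 6 other cytosolic genes passed in either edgeR fit, and all 6 log2 fold changes over 10 libraries were below 0. Qars1 and Rars1, the glutamine and arginine enzymes of the complex, are described here because their values stood at the low end. Qars1 was at 76.8, 112, 47.3, 42.9 and 49.9 CPM in sedentary and 39.2, 37.7, 37.3, 42.4 and 37.4 CPM in exercise libraries. Rars1 was at 58.1, 79.9, 33.7, 32.2 and 39.0 CPM and at 32.4, 26.0, 28.2, 29.4 and 30.1 CPM. Sedentary 1 and 2 were the highest libraries in both. Qars1 was the only 1 of 19 cytosolic genes with every exercise library below every sedentary one, by a small gap. Of all genes tested, 11.4% had this too. In Rars1 the groups overlapped. Log2 fold changes over 10 libraries were -0.76 for Qars1 and -0.73 for Rars1 (edgeR adjusted p = 0.069 and 0.0721), and over the 8 libraries -0.24 and -0.23 (adjusted p = 0.095 and 0.157). Both passed when sedentary 3 or sedentary 4 was left out (edgeR adjusted p of 0.0301 to 0.0499).

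Kars1, the lysine enzyme that like Gars1 serves both compartments, was at 72.7, 95.0, 54.7, 55.2 and 65.8 CPM in sedentary and 62.9, 56.7, 53.2, 61.0 and 49.7 CPM in exercise libraries. The groups overlapped, and the log2 fold change was -0.28 (edgeR adjusted p = 0.253), or -0.02 without sedentary 1 and 2. The phenylalanine enzyme is built from the products of Farsa and Farsb. Farsa was at 20.5, 24.6, 15.5, 16.4 and 17.8 CPM and at 18.7, 16.2, 15.2, 18.9 and 16.9 CPM. Farsb was at 38.2, 64.2, 29.6, 28.9 and 34.8 CPM and at 30.6, 27.7, 27.0, 27.3 and 28.6 CPM. In both subunit genes sedentary 2 was highest and the groups overlapped, with log2 fold changes of -0.14 and -0.47 (edgeR adjusted p = 0.50 and 0.149) that were 0.08 and -0.11 without sedentary 1 and 2. Hars1, for histidine, was at -0.21, and at -0.01 without sedentary 1 and 2.

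Members of the multi-synthetase complex and free enzymes were both among the called genes. Of 7 synthetases of the complex 4 rose (Eprs1, Iars1, Lars1 and Mars1), where 2.44% of all genes tested did. The log2 fold changes of the 7 reached from -0.76 to 0.75. Of the 12 free cytosolic genes 3 rose. The 3 scaffold genes Aimp1, Aimp2 and Eef1e1 had log2 fold changes of -0.52, -0.68 and -0.39, none past the threshold (edgeR, 1 with an unadjusted p under 0.05). Without sedentary 1 and 2 their values were -0.21, -0.08 and 0.06. By fold of the catalytic domain, 5 of 9 class I genes and 1 of 9 class II genes rose over 10 libraries, beside Eprs1, which has a domain of each class. Over the 8 libraries 5 of 9 rose in each class, where 4.10% of all genes did. These counts moved with single libraries. Without exercise 7, the genes that rose were 2 of the complex and 1 free gene, and by class 3 of class I and 0 of class II.

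With TMM scaling, no mitochondrial synthetase gene passed the edgeR test. Over 10 libraries edgeR called 0 of the 16, with 4 at an unadjusted p under 0.05, and DESeq2 and limma-voom called 0 (edgeR called 2.44% of all genes higher and 11.4% lower). Of the 16, 14 had log2 fold changes below 0, and the median was -0.38. Without sedentary 1 and 2, edgeR again called 0 of the 16, with 0 at an unadjusted p under 0.05, and the median was -0.12, beside 0.03 for all genes. With library totals alone, edgeR called 5 of the 16 lower over 10 libraries, where it called 4408 of all 15298 genes lower.

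The 4 mitochondrial genes of smallest p were Tars2, Rars2, Vars2 and Fars2. Tars2, the mitochondrial threonine enzyme, was at 20.1, 34.5, 14.2, 14.1 and 17.1 CPM in sedentary and 14.6, 11.8, 12.3, 12.7 and 12 CPM in exercise libraries, with overlap at exercise 6. Rars2, for arginine, was at 20.7, 35.1, 16.7, 15.6 and 18.4 CPM and at 13.7, 15.5, 15, 15.5 and 13.1 CPM, where the groups just failed to overlap. Vars2, for valine, was at 20.3, 22.4, 11.8, 13.4 and 12.9 CPM and at 12.3, 11.1, 10.1, 12.9 and 11.6 CPM, with overlap. In these 3 genes sedentary 1 and 2 were the highest libraries. Fars2, for phenylalanine, did the same, at 18.9, 28.1, 12.4, 14 and 16.1 CPM in sedentary and 14.5, 11.9, 12.7, 13.3 and 11.2 CPM in exercise libraries, with overlap. In that order, the log2 fold changes of the 4 genes were -0.66, -0.55, -0.48 and -0.49 (edgeR adjusted p = 0.0944, 0.114, 0.129 and 0.143), and -0.23, -0.19, -0.11 and -0.13 over the 8 libraries. Rars2 was the 1 of the 16 mitochondrial genes with every exercise library below every sedentary one, as were 11.4% of all genes tested, and 0 mitochondrial genes had every exercise library above. Among cytosolic genes 9 of 19 did, beside 6.24% of all genes.

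The remaining mitochondrial genes reached from -0.61 (Mars2) to 0.45 (Lars2). Hars2, for histidine, was at 0.04 (-0.29 with library totals alone) and Iars2, for isoleucine, at -0.15. Without sedentary 1 and 2, Mars2 was at 0.01, Iars2 at 0.05 and Wars2 at 0.06.

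Setting each cytosolic enzyme beside the mitochondrial enzyme for the same amino acid gave 17 pairs, in which Eprs1 and Fars2 each stand in 2. The cytosolic log2 fold change was above the mitochondrial one in 15 of 17 pairs over 10 libraries, with a median difference of 0.71. It was so in 13 of 17 over the 8, with a median difference of 0.54. The widest pair was that for methionine, Mars1 at 0.75 and Mars2 at -0.61, a difference of 1.36 that was 0.62 without sedentary 1 and 2. The pair for cysteine differed by 1.29, and by 0.94 without them. With the small intestinal level as a covariate the methionine pair was reversed, with Mars1 at 0.22 and Mars2 at 0.80. The cysteine pair was not, with Cars1 at 0.51 and Cars2 at 0.13.

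Within single libraries the ratio of the pair does not depend on scaling. The Cars1 to Cars2 ratio was 1.44 to 3.52 in sedentary and 4.63 to 6.52 in exercise libraries. For Iars1 to Iars2 it was 1.07 to 1.84 and 2.26 to 3.23, and for Yars1 to Yars2 2.57 to 6.72 and 7.22 to 10.8. Such a gap between groups was present in 8 of the 17 pairs (those of Cars1, Iars1, Mars1, Nars1, Sars1, Tars1 and Yars1 and that of Eprs1 with Ears2), always with exercise higher. How often ratios of other gene pairs leave such a gap was not counted, nor were these ratios recounted without sedentary 1 and 2. The ratio shows unequal change of its members and not which of them changed.

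**Figure D3:**
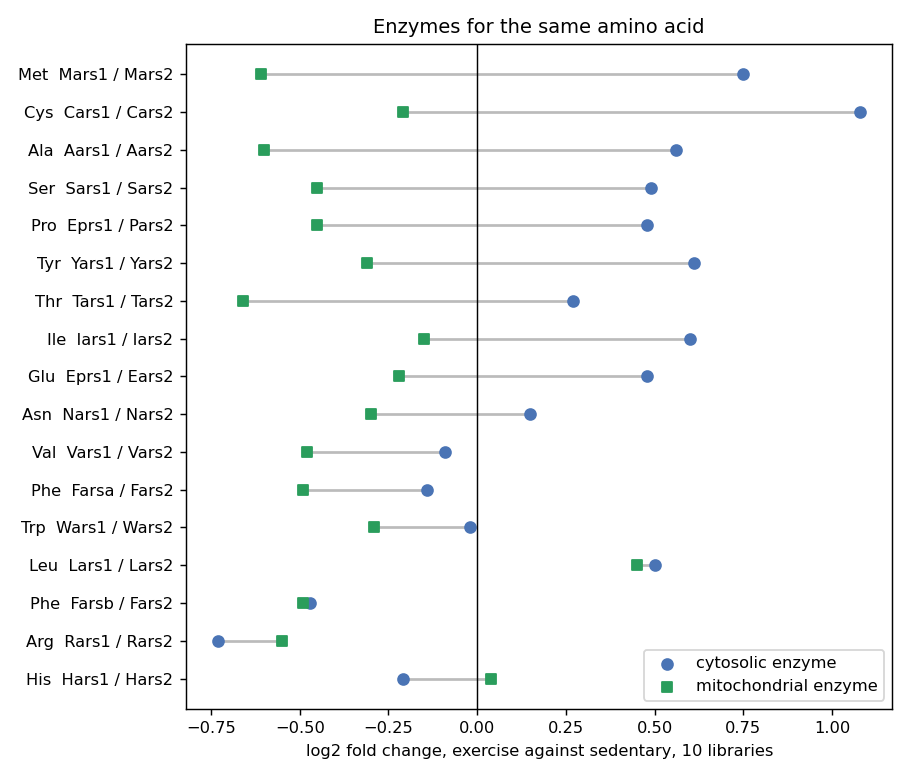
Log2 fold change of exercise against sedentary over 10 libraries for the cytosolic (circles) and mitochondrial (squares) enzyme of each amino acid, sorted by their difference. The circle is right of the square in 15 of 17 pairs, the exceptions being arginine (-0.73 and -0.55) and histidine (-0.21 and 0.04).

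Levels within the family were compared per kilobase of the longest coding transcript in the GENCODE mouse annotation. The median cytosolic gene was at 18.4 and the median mitochondrial gene at 3.69 CPM per kilobase over the 10 libraries, a ratio of 4.99. Gars1 (55.0), Nars1 (49.6) and Sars1 (33.7) were the highest cytosolic genes and Farsa (9.90) the lowest. In these means over both groups all 19 were above the highest mitochondrial gene other than Lars2, which was Rars2 at 9.60. In sedentary libraries alone Rars2, at 11.4, was above Farsa (10.4), Lars1 (10.2) and Cars1 (9.81). Neighbours in this order could change places between the groups. Mars1 at 22.5, Wars1 at 21.3, Eprs1 at 21.0 and Aars1 at 20.9 stood next to each other over all libraries. In sedentary libraries they were at 16.8, 21.4, 17.5 and 16.9, and in exercise libraries at 28.3, 21.2, 24.5 and 24.9. At the low end stood Mars2, at 0.551, whose longest coding transcript has 11294 bases. In CPM not divided by length, Mars2 (6.23) was above Sars2 (6.06), Wars2 (5.89) and Pars2 (2.69). Read on the strand of each transcript, no 2 members shared any 31-base word, and 33 of the 35 shared under 5% of theirs with another gene. Words of the opposite strand were not compared. Exons of 13 members overlap a gene on the opposite strand, among them Hars1 and Hars2, which overlap each other.

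**Figure D4:**
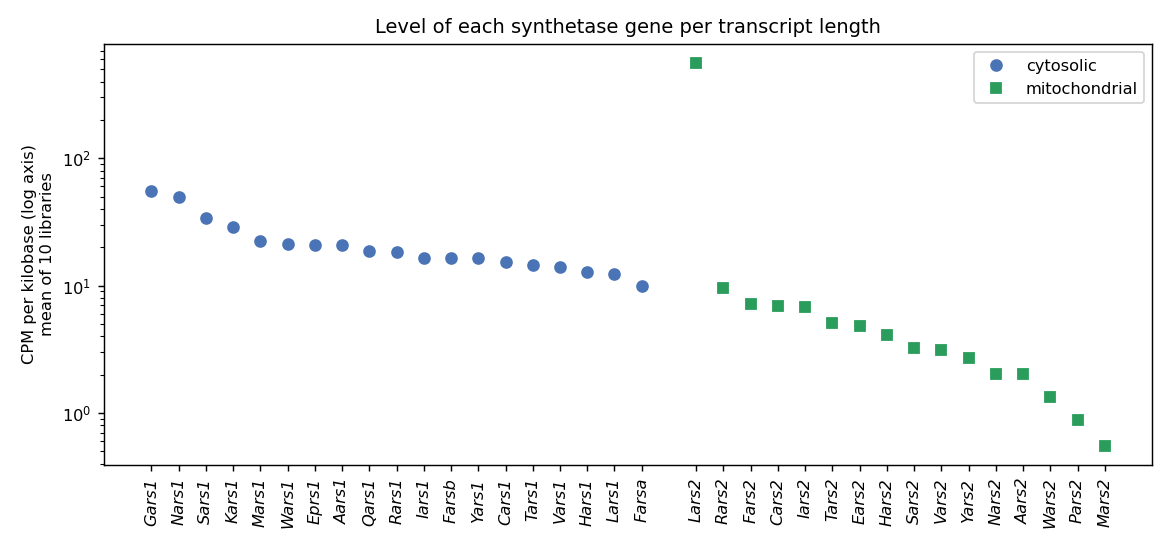
Mean level over 10 libraries in CPM per kilobase of the longest coding transcript, on a log axis, for the cytosolic (circles) and mitochondrial (squares) synthetase genes, each sorted from high to low. Lars2 stands alone at 558, and the other mitochondrial genes lie between 0.551 and 9.60, below all 19 cytosolic genes in these means over both groups, though not in the sedentary libraries alone.

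Lars2 (ENSMUSG00000035202), the mitochondrial leucine enzyme, did not follow its family in level, and is described for that after its values were seen. Lars2 stood at 1330, 3040, 2450, 1710 and 671 CPM in sedentary and 3290, 2740, 1550, 3010 and 1950 CPM in exercise libraries. The groups overlapped widely, and libraries of 1 group differed several-fold. Its mean of 2170 CPM was 59 times that of the next mitochondrial gene, Iars2, and made up 92.4% of the summed CPM of the 16 genes. By edgeR the log2 fold change was 0.45 ± 0.39 (SE, edgeR adjusted p = 0.413), and 0.66 (adjusted p = 0.306) without sedentary 1 and 2.

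By library, the mean centred log2 CPM of the 13 reported ATF4 targets was -0.53, -0.19, -0.20, -0.11 and -0.15 in sedentary and 0.22, 0.30, 0.15, 0.27 and 0.24 in exercise libraries. That of the 6 other cytosolic genes was 0.38, 0.80, -0.12, -0.17 and 0.06, and -0.09, -0.23, -0.29, -0.11 and -0.23. The 15 mitochondrial genes other than Lars2 were at 0.17, 0.82, -0.16, -0.01 and 0, and -0.16, -0.14, -0.19, -0.18 and -0.14. The first group thus split sedentary from exercise, while the other groups were high in sedentary 1 and 2 and close together in the other 8 libraries. In sedentary 1 the reported targets and the other genes lay on opposite sides of 0.

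**Figure D5:**
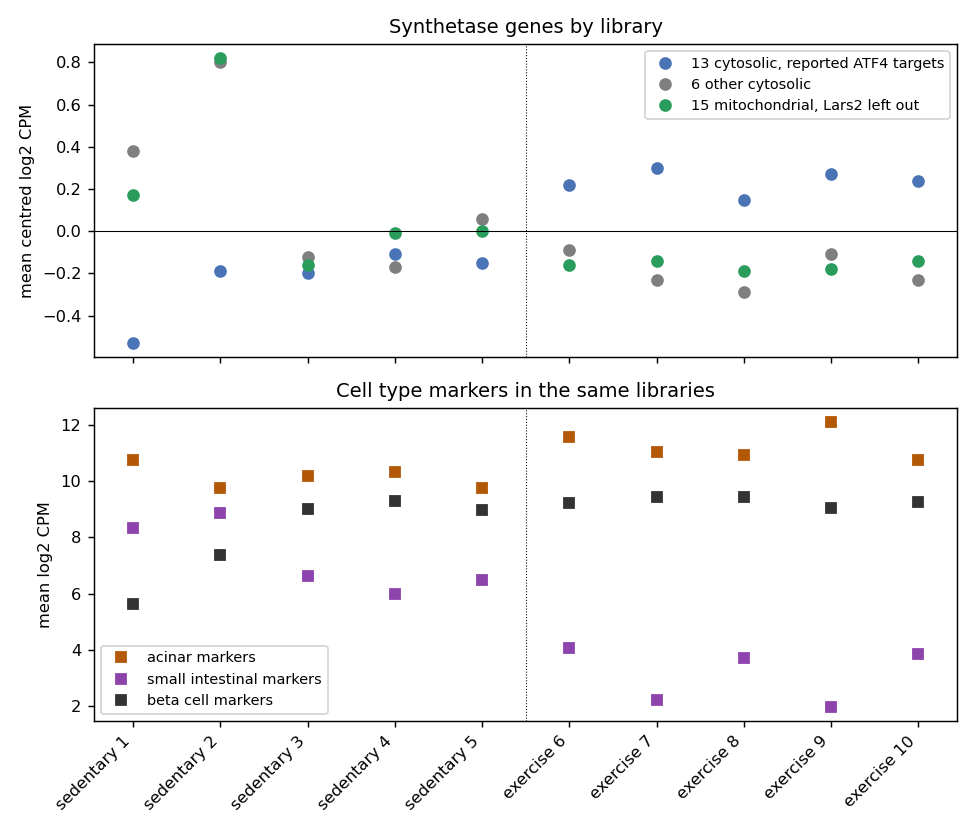
Upper panel, mean centred log2 CPM of 13 reported ATF4 targets, 6 other cytosolic and 15 mitochondrial synthetase genes in each library. Lower panel, mean log2 CPM of acinar, small intestinal and beta cell markers in the same libraries. The reported targets lie between 0.15 and 0.30 in exercise and between -0.53 and -0.11 in sedentary libraries, and acinar markers between 10.75 and 12.11 and between 9.74 and 10.74.

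The mean levels of acinar and of small intestinal markers also separated sedentary from exercise libraries, while those of beta cell markers overlapped. Of the 30 acinar markers 17 rose and 0 fell, where 2.44% of all genes tested rose, and 20 rose over the 8 libraries, where 4.10% did. This count was 2 to 7 without any 1 of sedentary 2, 3 and 5 and exercise 6, 7, 8 and 9, 16 to 20 without any 1 of the others, and 7 by limma-voom. Their summed level was 87900 to 183000 CPM in sedentary and 201000 to 549000 CPM in exercise libraries. Of 34 small intestinal markers tested 33 fell, also over the 8 libraries, where 11.4% and 8.68% of all genes did. The summed level of the list was 4640 to 31700 and 485 to 1310 CPM. Of 18 beta cell markers 0 passed (edgeR, 4 at an unadjusted p under 0.05, and 2 by DESeq2) and 4 rose over the 8 libraries, with sums of 8490 to 197000 and 138000 to 195000 CPM.

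With the acinar level as a covariate, 0 of all 15298 genes passed (edgeR, 2057 at an unadjusted p under 0.05). The log2 fold changes of the 7 called genes were then between 0.51 (Lars1) and 1.35 (Cars1), and 7 cytosolic genes had an unadjusted p under 0.05. With the small intestinal level as a covariate, 0 genes passed as well (edgeR, 272 at an unadjusted p under 0.05), and the same 7 genes lay between -0.06 (Lars1) and 0.51 (Cars1). The acinar and intestinal levels shared much of their variance with the group (r squared 0.626 and 0.802), so each covariate and exercise cannot be fully told apart.

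Genes that work beside the synthetases were read from lists. Of all genes tested over the 10 libraries, edgeR called 2.44% higher and 11.4% lower. Xpot, the exporter that carries mature tRNA out of the nucleus, was the only 1 of 12 related and tRNA-charging genes that passed. Xpot stood at 51.7, 55.9, 65.1, 69.0 and 51.2 CPM in sedentary and 79.7, 88.7, 82.3, 91.3 and 90.2 CPM in exercise libraries, without overlap. The log2 fold change was 0.56 ± 0.12 (SE, edgeR adjusted p = 0.0155), and 0.51 over the 8 libraries (adjusted p = 0.016). By edgeR 0 of 8 cytosolic elongation genes passed (1 at an unadjusted p under 0.05, median log2 fold change -0.25), and 0 of 15 genes of mitochondrial tRNA processing (1 unadjusted, median -0.13).

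Of 13 mitochondrial translation factors tested 2 fell, where 11.4% of all genes did. This count was 0 without sedentary 1, without sedentary 2, without any 1 exercise library and by limma-voom. Tufm, the mitochondrial elongation factor Tu, was at 68.2 ± 44.5 CPM in sedentary and 27.7 ± 2.43 CPM in exercise libraries (SD, n = 5 each, edgeR adjusted p = 0.0427), with 81.1 and 140 CPM in sedentary 1 and 2. Qrsl1 encodes a subunit of the amidotransferase that makes glutaminyl-tRNA in mitochondria, which have no glutaminyl-tRNA synthetase of their own. Qrsl1 stood at 7.95 ± 3.64 and 3.87 ± 0.736 CPM (edgeR adjusted p = 0.0484). Over the 8 libraries their log2 fold changes were -0.50 and -0.46, against -1.30 and -1.04 over all 10, and only Tufm passed there (edgeR adjusted p = 0.0472 and 0.163).

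Of 34 other ATF4 pathway genes tested, 15 rose and 0 fell over 10 libraries, where 2.44% of all genes rose and 11.4% fell. Their log2 fold changes had a median of 0.70 and reached from -1.98 to 1.86. Over the 8 libraries 17 of 35 rose, where 4.10% of all genes did. With library totals alone 11 rose and 3 fell, and without any 1 exercise library 10 to 13 rose. With the acinar or the small intestinal level as a covariate 0 passed, as of all genes, with medians of 0.43 and 0.19. Asns, asparagine synthetase, was at 58.3, 51.8, 94.1, 99.8 and 88.8 CPM in sedentary and 180, 183, 154, 232 and 164 CPM in exercise libraries. The groups did not overlap, and the log2 fold change was 1.22 ± 0.21 (SE, edgeR adjusted p = 0.009), and 0.98 over the 8 libraries (adjusted p = 0.002). Slc7a11, which imports cystine, rose by 1.45, Slc7a5, which imports large neutral amino acids, by 1.36, Phgdh, the first enzyme of serine synthesis, by 1.24, and Eif2ak4, the kinase that senses uncharged tRNA, by 1.12 (all on the log2 scale, with edgeR adjusted p of 0.009 to 0.0214), and over the 8 libraries by 1.41, 0.98, 1.15 and 0.90 (adjusted p of 0.00155 to 0.00587). Atf4 transcript itself was at 186 ± 48.2 and 217 ± 20.4 CPM (SD, n = 5 each), a log2 fold change of 0.22 (edgeR adjusted p = 0.416) that was 0.01 without sedentary 1 and 2. Ddit3, given above, had a log2 fold change of -0.24 (edgeR adjusted p = 0.368), and of -0.41 (adjusted p = 0.0872) over the 8 libraries.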

How the data were processed

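Islet RNA was purified on small-scale columns and made into stranded libraries of mRNA, per the labels' protocols. The authors deposited estimated counts per Ensembl gene and library. The submitters' processing notes name fastp and kallisto. Tool versions, the genome build, the annotation and the strand setting were not given in the sources used here. As 12.6% of values were not whole, they were rounded before testing.

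The quasi-likelihood test of edgeR 4.0.16 was run in R 4.3.3 over every gene that passed its filter (minimum count 10, minimum total 15). TMM factors were 0.669 to 1.20. Benjamini-Hochberg adjustment ran over all genes tested, and 0.05 was the threshold. CPM use TMM-scaled sizes, and 2 was the prior count for log2 CPM. Standard errors are the log2 fold change over the square root of F. Alternatives were DESeq2 1.42.0, limma-voom (limma 3.58.1), other scalings and filters, marker levels as covariates, and libraries left out. The test was checked on simulated counts. No 2 of the 10 libraries agreed within sampling noise (lowest chi-square per degree of freedom 9.03 over 45 pairs).

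The members, lists and alternatives were chosen with earlier results of these data known. Named with values in every library were members past the threshold in the 10-library or 8-library fit, the 4 of smallest p in each compartment, Farsa, Farsb, Gars1 and Kars1, and genes that passed in other lists, up to 6 a list, are named with values or fold changes. Qars1, Rars1, Lars2, Atf4 and Ddit3 were added after their values were seen. A few items that these rules would give are not reported here, and no count, median or figure of the synthetase genes includes the genes among them.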

Additional observations from a re-analysis of the deposited data

Results flagged for a closer look

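In 6 of 70 sets of 5 libraries (35 genes in 2 groups), the highest or lowest library lay apart from the other 4 by Dixon's 95% criterion for the gap as a part of the range. Chance gives about 1 in 20. Sedentary 2 was the high library in 5 of them, at 64.2 CPM for Farsb, 58.0 for Iars2, 35.1 for Rars2, 10.5 for Sars2 and 13.3 for Yars2. It also had the highest small intestinal level of all libraries, 8.87 log2 CPM, and the part of this in those values was not tested. In the sixth, Aars1 was at 128 CPM in exercise 9, below the other exercise libraries. Exercise 9 had the highest acinar level, 12.11 log2 CPM, and the lowest TMM factor, 0.669.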

How the results depend on the processing

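Of 735 single-gene values (35 genes under 21 alternatives), 626 kept direction and side of the threshold, 39 lost a call, 27 gained one and 43 changed sign. No mitochondrial gene was called higher under any alternative. With library totals alone (all-gene median -0.34), 159 genes were higher and 4408 lower, cytosolic genes were 1 higher and 6 lower, 5 mitochondrial genes were lower, the medians were -0.07 and -0.71, and Hars2 (-0.29), Nars1 (-0.18) and Tars1 (-0.07) changed sign. With upper quartile scaling (all-gene median 0.11) the cytosolic median was 0.39, with Vars1 at 0.03 and Wars1 at 0.09. DESeq2 called 966 genes higher and 2835 lower, among them 9 cytosolic genes higher and 2 lower. Limma-voom called 177 and 339, among them 5 cytosolic genes higher.

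Without sedentary 1 and 2, 644 genes were higher, 11 of them cytosolic members, the medians were 0.37 and -0.12, and Farsa (0.08), Iars2 (0.05), Mars2 (0.01), Vars1 (0.07) and Wars2 (0.06) changed sign. With the acinar covariate 0 genes were higher and 0 lower, 0 of them cytosolic members (edgeR, 2057 at an unadjusted p under 0.05), and Ears2 (0.29) and Iars2 (0.03) changed sign. With the intestinal covariate the counts were again 0, 0 and 0 (edgeR, 272 unadjusted). The cytosolic median was 0.28 and the mitochondrial median 0.38. The signs of 23 genes changed there: Aars2 0.60, Cars2 0.13, Ears2 0.13, Fars2 0.42, Farsa 0.34, Farsb 0.51, Gars1 -0.08, Hars1 0.17, Iars2 0.38, Kars1 0.29, Lars1 -0.06, Mars2 0.80, Pars2 0.39, Qars1 0.44, Rars1 0.58, Rars2 0.25, Sars1 -0.08, Sars2 0.14, Tars2 0.49, Vars1 0.06, Vars2 0.30, Wars2 0.39 and Yars2 0.30. The cause was not tested in any of these.

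With 1 library left out, 132 to 889 genes were higher and 800 to 2721 lower, with the fewest higher without exercise 7, the fewest lower without exercise 8 and the most of both without sedentary 4. Cytosolic members higher were 3 to 9 and lower 0 to 2 (Qars1 and Rars1, without sedentary 3 or 4), and mitochondrial members 0 in both directions. The cytosolic median was 0.20 to 0.39 and the mitochondrial one -0.46 to -0.20. Wars1 lay between -0.06 and 0.04, Hars2 between -0.01 and 0.13 and Iars2 between -0.21 and 0.03. No paired analysis was possible because replicate numbers run from 1 to 10 and the groups share none.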

Other observations

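Lars2 stood far above the other mitochondrial synthetases in every library. The gene whose level over the 10 libraries was most like that of Lars2 (by Pearson's r of log2 CPM among genes of at least 5 CPM, looked for after its values were seen) was the microRNA gene Mir6236. Its level was 316, 767, 577, 408 and 177 CPM in sedentary and 912, 696, 383, 743 and 484 CPM in exercise libraries, beside 1330, 3040, 2450, 1710 and 671, and 3290, 2740, 1550, 3010 and 1950 CPM for Lars2. The next 3 genes had no symbol in the table of names and held equal values, between 35.1 and 170 CPM. In all 5 genes sedentary 5 was the lowest library and exercise 6 the highest. Where the reads of these genes come from was not tested.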
